A study of Mus musculus with 8 samples.

Results

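Gene expression was compared between the 2/4 clone treated with all-trans retinoic acid (RA) and the untreated 2/4 clone, on 4 of the 8 one-colour arrays of the study, chosen by the line and treatment in their sample labels. The 2/4 clone is a single clone of N18TG2, a mouse neuroblastoma line, and carries, per the labels, expression of ChAT (choline acetyltransferase), which synthesises acetylcholine. Clone RA replicates 1 and 2 were cells given 1 µM RA in medium with 1% fetal bovine serum, and clone untreated replicates 1 and 2 were the same clone with no treatment. All 4 came from a clone kept in growth medium with 10% serum and in G418 at 200 µg/mL, a drug used to keep cells that carry a resistance gene. How long RA was given and which medium the untreated cells had are not stated, so lower serum and RA cannot be told apart. RA was dissolved in DMSO, and the labels name no vehicle for the untreated cells. The other 4 arrays hold the parental N18TG2 line, which the labels do not place in G418, untreated and with RA under the same protocol, 2 arrays each. They are used here for a shared estimate of the spread and to test whether a response in the clone differed from the parental one.

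RA is a vitamin A derivative that binds nuclear RA receptors, which sit on DNA with retinoid X receptors and switch on genes such as those of the Cyp26 enzymes that degrade RA and the Hox genes that pattern the body axis. In neuroblastoma cells RA is widely used to slow division and to promote neurites and neuronal transmitter genes. The integrated stress response, which also appears below, works through the transcription factors ATF4 and CHOP and raises genes of amino acid import, serine synthesis and tRNA charging.

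Levels are given as log2 of the background-subtracted intensity minus the 75th percentile of the same array, and pairs of values are in the order replicate 1, replicate 2. Arrays differed in brightness, with a 75th percentile of intensity between 264.8 and 1264. On clone RA replicate 1, 71.8% of probes were well above background, against 47.8% to 62.7% on the other 7, and the scanner software marked that array alone for evaluation. Its dimmest 25% of genes had a median level of -3.97, against -5.61 to -5.16 elsewhere, so each finding was also computed from clone RA replicate 2 alone. Bright genes read lower with RA on both arrays, with a median log2 difference of -0.39 in the brightest 25% of genes (-0.37 with replicate 2 alone) against 0.02 over all genes. All arrays lay on 1 slide, and within the clone the slide row and RA cannot be told apart. The sources do not state separate cultures for the arrays of a group, so p-values measure the spread between these samples, which may be technical.

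In the clone with RA, an RA-degrading enzyme gene, Hoxb genes and single neuronal genes were higher, and genes of mitosis, of the integrated stress response and of serine synthesis were lower. Of 26181 genes tested, 682 (2.6%) were higher and 545 (2.08%) lower with RA in the clone, at an adjusted p under 0.05 in limma (1227, or 4.69%, in all). With clone RA replicate 2 alone, 484 (1.85%) were called, of which 243 (0.928%) were higher and 241 (0.921%) lower, and without that array 3047 (11.6%) were called. The limma count was 0 when only the 4 clone arrays were fitted, when dim probes were kept, and without untreated clone replicate 1 or 2, with 3209 to 5355 genes at an unadjusted p under 0.05 in these fits. It was 969 without either parental RA array and 270 without either parental untreated array. These are levels in RNA from whole cultures, in which fewer cells of a kind and less RNA per cell cannot be told apart. Scaling to the 75th percentile of probes above background on all arrays moved the median of all genes by 0.25, to 0.27, and gave 1019 higher and 394 lower.

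The promoters of genes in the mitotic and stress response lists are shown first, since members of these lists fell together. The windows are RefSeq sequences of build GRCm38.p6, from 250 bases before to 50 after the gene start, read in the gene's direction. They were searched on both strands for TTTGAA, the core of the cell cycle homology region found in promoters active at mitosis, and for CCAAT, the site of the factor NF-Y. Of the 21 mitotic genes that fell, 17 had a window. A TTTGAA match lay in 11 of these 17, against 20.2% of all genes and 17.9% of all windows, and a CCAAT match in 14 of 17, against 41.0% of genes and 37.4% of windows. Mitotic genes that were not called were not searched. Whether these shares go with the fall or with being a mitotic gene was therefore not tested. Stretches of 100 bases are printed for 3 of the mitotic genes with the smallest adjusted p among those with a match, with matches in capitals. They lie at chr9:22389177-22389276 (minus strand) for Anln, chr7:122159365-122159464 (plus strand) for Plk1 and chr2:164769821-164769920 (plus strand) for Ube2c.
Anln: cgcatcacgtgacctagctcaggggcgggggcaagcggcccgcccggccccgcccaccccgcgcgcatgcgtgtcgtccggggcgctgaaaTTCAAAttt
Plk1: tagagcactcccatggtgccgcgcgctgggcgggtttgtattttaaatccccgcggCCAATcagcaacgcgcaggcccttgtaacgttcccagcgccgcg
Ube2c: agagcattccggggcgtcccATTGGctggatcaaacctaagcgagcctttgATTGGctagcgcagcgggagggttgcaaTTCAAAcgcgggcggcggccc
In the Anln stretch the match lies after the gene start and reads TTCAAA, which is TTTGAA on the other strand. Plk1 shows CCAAT upstream of the start. Ube2c holds a pair of CCAAT sites in reverse orientation, ATTGG, and TTCAAA nearer the start.

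For the stress response, windows were searched on both strands for TGATGNAA, the composite site at which ATF4 binds with C/EBP factors. Of the 13 members that fell, 10 had a window, and 4 of these (Atf3, Chac1, Nupr1 and Trib3) held a match, against 4.51% of all genes and 3.97% of windows. The 3 with the smallest adjusted p are printed, with the fixed letters of the match in capitals, from chr1:191183394-191183493 (minus strand) for Atf3, chr2:119350999-119351098 (plus strand) for Chac1 and chr7:126625531-126625630 (minus strand) for Nupr1.
Atf3: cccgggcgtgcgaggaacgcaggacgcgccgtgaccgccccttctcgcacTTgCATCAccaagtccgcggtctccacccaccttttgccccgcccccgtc
Chac1: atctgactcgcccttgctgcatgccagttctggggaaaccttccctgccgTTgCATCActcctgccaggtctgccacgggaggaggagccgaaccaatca
Nupr1: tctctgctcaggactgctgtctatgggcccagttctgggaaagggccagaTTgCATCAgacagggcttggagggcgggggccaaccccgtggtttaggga
In all 3 the open position of the motif holds the same letter. The DR5 motif, a direct repeat of the receptor's site spaced by 5 bases as in many RA response elements, lay in 0.862% of all windows and in neither of the windows of Cyp26b1 and Stra6, the retinoid genes that passed the test. Stress response genes that were not called were not searched either, so their share is not tied to the fall. A match is a run of letters in such a window, and binding was not tested.

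Among genes of the retinoid pathway, the RA-degrading enzyme Cyp26b1 had the largest rise of the genes with a symbol that were well above background on all clone arrays. Its level was 0.42 and -0.31 without RA and 5.60 and 7.26 with it. Both RA arrays stood far above both untreated arrays, and the difference was 6.38 ± 0.60 on the log2 scale (standard error, n = 2 arrays per group, adjusted p = 0.0116). With RA replicate 2 alone it was 7.21 (adjusted p = 0.00822). Stra6, the receptor that imports retinol, went the other way, with levels of 1.26 and 1.11 without RA and -2.09 and -1.41 with it. Both RA arrays lay below both untreated arrays, by a log2 difference of -2.94 ± 0.47 (adjusted p = 0.0255), and with replicate 2 alone the call was lost (-2.60, adjusted p = 0.0619). In the parental line Cyp26b1 and Stra6 also passed, with differences of 5.44 and -4.57, and neither passed the test between the lines. Of the 26 genes measured on this list, the remaining 24 did not pass in the clone. The list's median difference was 0.21 against 0.02 over all genes.

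The retinoid genes that did not pass are given as values. Cyp26a1, a related RA-degrading enzyme, read -3.33 and -3.68 without RA and -2.03 and -1.88 with it (difference 1.55 ± 0.39, adjusted p = 0.0762). Dhrs3, a retinal reductase, was not well above background on either untreated array and was above it on 1 RA array, with levels of -7.70 and -7.65 against -3.09 and -6.05. For the RA receptor genes Rara and Rarg the arrays overlapped, and the differences were -0.10 ± 0.35 and 0.05 ± 0.30. Rarb, the receptor gene with a classical RA response element, was not well above background on either untreated array and was above it on 1 RA array. It read -7.98 and -7.33 without RA and -7.15 and -6.73 with it, a difference of 0.71 ± 0.45 (adjusted p = 0.415). In the parental line Rarb differed by 3.75 ± 0.45 (adjusted p = 0.0181) with RA. The test of the difference between the lines gave -3.03 ± 0.64 (adjusted p = 0.12, 95% interval -4.55 to -1.51), so a smaller response in the clone was not shown.

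**Figure D1:**
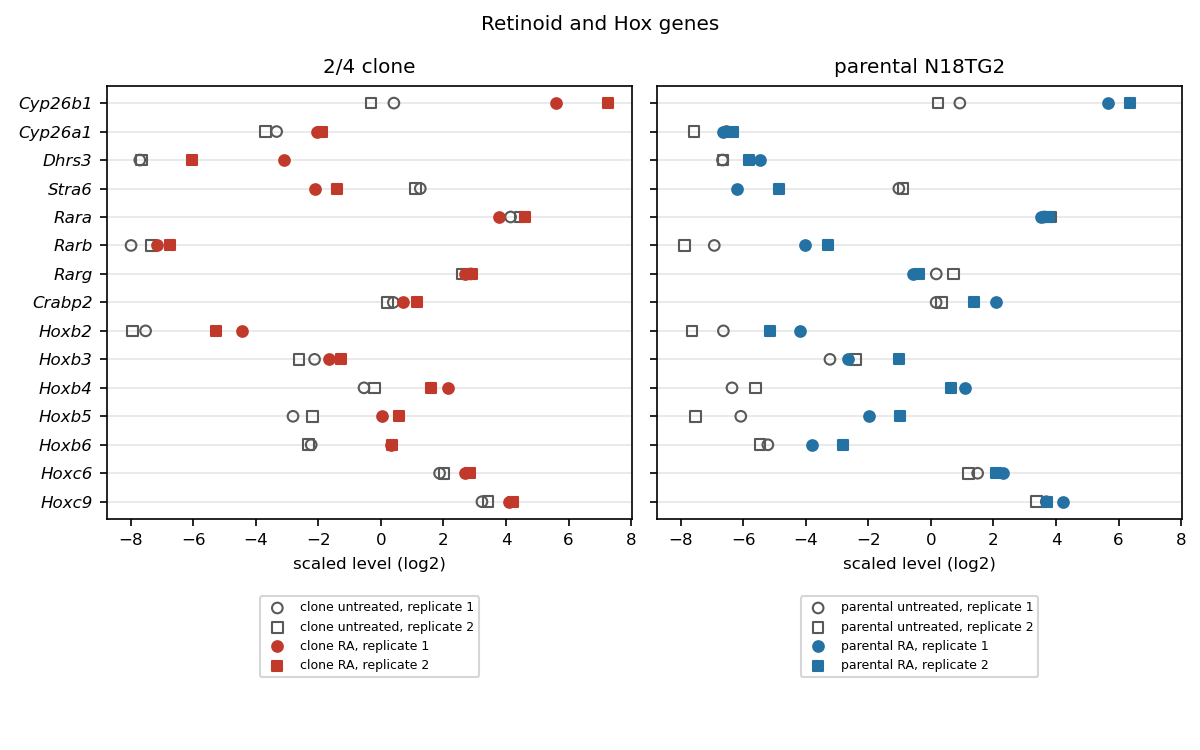
Log2 scaled level of retinoid and Hox genes on each array, in the 2/4 clone (left) and the parental line (right), with open symbols untreated and filled symbols RA, circles replicate 1 and squares replicate 2. Cyp26b1 stands at 5.60 and 7.26 with RA in the clone, where Rarb stays at -7.15 and -6.73, and Hoxb4 stands at -0.54 and -0.21 without RA in the clone against -6.36 and -5.60 in the parental line.

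Hoxb6, Hoxb5 and Hoxb4, which encode homeodomain factors of the body axis, were higher with RA. Of 39 Hox genes on the array, 17 passed the filter on dim probes and 11 were well above background on all 4 clone arrays. These 3 were the called members of the 11, beside 2.37% of all genes readable in this way, and none of the 11 was lower, beside 2.31%. Hoxb6 had levels of -2.23 and -2.32 without RA and 0.32 and 0.35 with it, a difference of 2.61 ± 0.37 (adjusted p = 0.021). Hoxb5 read -2.81 and -2.19 without RA and 0.05 and 0.57 with it (2.81 ± 0.57, adjusted p = 0.0433), and Hoxb4 read -0.54 and -0.21 without RA and 2.14 and 1.62 with it (2.25 ± 0.38, adjusted p = 0.0282). For these genes the RA arrays lay above the untreated arrays without overlap, which held for 8 of the 11 members, beside 23% of all readable genes. Hoxb2 also passed, but it entered the test through the RA arrays. It was not well above background on either untreated array and was at least 4.07-fold higher with RA (adjusted p = 0.0316). With RA replicate 2 alone Hoxb6 passed (2.62, adjusted p = 0.0445), while Hoxb2, Hoxb4 and Hoxb5 did not (adjusted p = 0.079, 0.076 and 0.0707). Of the 17 members, 8 were called without RA replicate 2, 3 without either parental RA array, and none without any 1 of the 4 untreated arrays. The median over the 11 readable genes was 0.91, and 0.90 with replicate 2 alone, beside -0.05 and -0.18 over all readable genes. It was 1.38 over the 17, which include genes that passed the filter only where they were high. In the parental line Hoxb4 and Hoxb5 also passed, at 6.84 and 5.33, from untreated levels not well above background. Of the Hoxc genes, Hoxc6 and Hoxc9 differed by 0.83 ± 0.27 and 0.84 ± 0.30 and did not pass (adjusted p = 0.133 and 0.167). Meis1, a partner of Hox factors on DNA, was at 0.75 ± 0.30 and did not pass (adjusted p = 0.215).

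Genes of mitosis were lower with RA. Of 48 measured members of the mitotic list, 21 fell, beside 2.08% of all genes, and none rose. In 45 of 48 both RA arrays lay below both untreated arrays, beside 28.7% of all genes. All 48 were readable on all 4 clone arrays, and of such genes this held for 7138 of 22209. The list's median was -1.38, and -1.30 with RA replicate 2 alone, against 0.02 and -0.17 over all genes and -0.39 and -0.37 in the brightest 25% of genes. The 21 fell by 2.56-fold to 5.59-fold. The call depended on which arrays entered: 2 members (Spc24 and Pttg1) were called with RA replicate 2 alone and 25 without that array, none without untreated clone replicate 1 or 2 (3209 or more of all genes at an unadjusted p under 0.05), 15 without either parental RA array and 2 without either parental untreated array. In the parental line, where 292 genes (1.12%) were called, 138 (0.527%) higher and 154 (0.588%) lower, none of the 48 was and the median was -0.11.

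By role, the kinetochore, which ties chromosomes to the spindle, held the largest fall on the list. Spc24, a subunit of the Ndc80 complex, had levels of 1.80 and 2.18 without RA and -0.42 and -0.57 with it, a difference of -2.48 ± 0.27 (adjusted p = 0.0138). Its partner Spc25 read 4.81 and 4.93 without RA and 3.09 and 2.90 with it (-1.88 ± 0.29, adjusted p = 0.0241). The other subunits, Ndc80 and Nuf2, were at -0.81 and -1.05 and did not pass (adjusted p = 0.322 and 0.118), with arrays separated in the same direction. The centromere genes Cenpa, the centromeric histone, and Cenpe, a kinetochore motor, fell by 3.92-fold and 2.99-fold (adjusted p = 0.033 and 0.0383), and Sgo1, which protects cohesion, by 2.91-fold (adjusted p = 0.0318). Among genes of chromosome separation, Pttg1, which encodes securin, read 5.97 and 5.66 without RA and 3.65 and 3.57 with it (-2.21 ± 0.31, adjusted p = 0.0215). Ube2c, the ubiquitin-conjugating enzyme of the anaphase-promoting complex, read 4.73 and 5.09 without RA and 2.78 and 2.91 with it (-2.07 ± 0.31, adjusted p = 0.0231). In every one of these genes the groups did not overlap.

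The kinases and cyclins of mitotic entry were lower as well. Plk1, a kinase of mitotic entry and spindle assembly, read 5.38 and 5.47 without RA and 3.62 and 3.85 with it, a fall of 3.23-fold (log2 -1.69 ± 0.26, adjusted p = 0.0231). Cdk1, the central mitotic kinase, read 3.31 and 3.30 without RA and 2.02 and 1.79 with it (-1.40 ± 0.27, adjusted p = 0.0383). Its cyclin partners Ccna2, Ccnb1 and Ccnb2 fell by 3.2-fold, 2.87-fold and 3.13-fold (adjusted p = 0.0383, 0.0464 and 0.0401). Aurka, a kinase of the spindle poles, fell by 3.1-fold (adjusted p = 0.0342), and Aurkb, a kinase of the centromere, was at -1.36 ± 0.32 and missed the threshold (adjusted p = 0.0608). Cdc25b, a phosphatase that activates Cdk1, fell by 2.56-fold (adjusted p = 0.0382). Anln, an actin-binding protein of the cleavage furrow, read 4.04 and 4.29 without RA and 2.30 and 2.54 with it (-1.75 ± 0.26, adjusted p = 0.0226). The spindle and midzone genes Kif23, Prc1, Tpx2 and Nusap1 fell by 3.35-fold, 2.83-fold, 2.93-fold and 2.72-fold, and the list was completed by Cdca8 and Pimreg at 3.32-fold and 4.35-fold. The proliferation marker Mki67 and the topoisomerase Top2a were at -1.29 ± 0.29 and -1.26 ± 0.29, with adjusted p of 0.0574 and 0.0582.

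**Figure D2:**
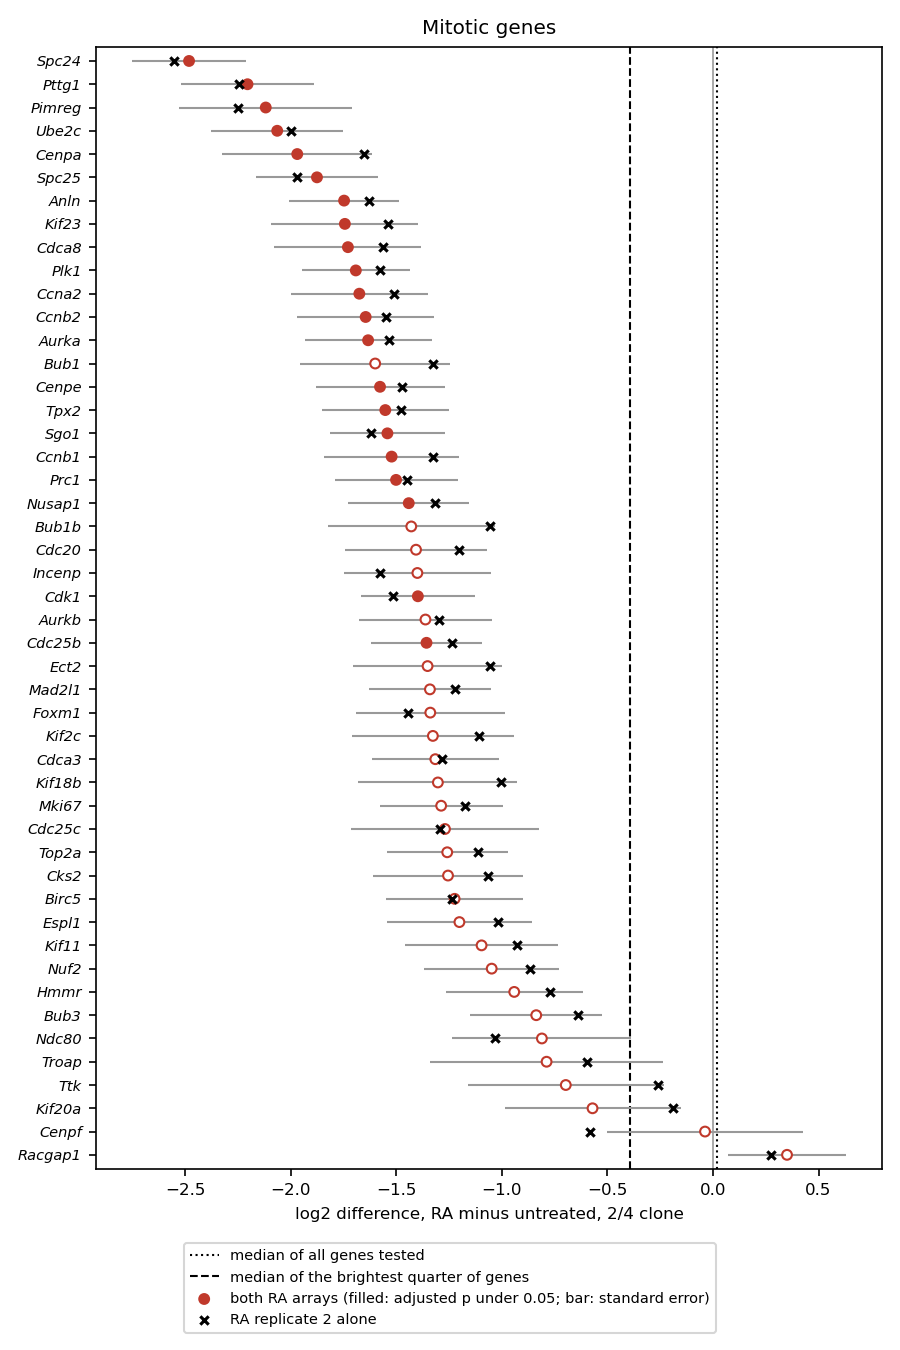
Log2 difference, RA minus untreated, for each of the 48 mitotic genes in the clone, with circles for both RA arrays (filled where the gene passed the test, bar 1 standard error), crosses for RA replicate 2 alone and lines at the median of all genes and of the brightest 25% of genes. Circles lie below 0 for 47 of the 48 genes, from -2.48 ± 0.27 for Spc24, and the circle above 0 is Racgap1 (0.35 ± 0.28).

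For the earlier phases of the cell cycle, 2 of 40 genes of DNA replication fell, beside 2.08% of all genes, and none rose. The median of the list was -0.53. Rrm2, a subunit of ribonucleotide reductase, read 5.0 and 4.97 without RA and 3.47 and 3.72 with it (-1.39 ± 0.25, adjusted p = 0.0334), and the clamp loader gene Rfc5 fell by 2.8-fold (adjusted p = 0.0346). Neither passed with RA replicate 2 alone. Of 21 genes of G1 cyclins and E2F factors, E2f2 fell by 2.59-fold (adjusted p = 0.0341). Among 29 CDK inhibitors and p53 target genes, 2 rose and 3 fell, beside 2.6% and 2.08% of all genes. Cdkn1a, which encodes the CDK inhibitor p21, read 2.66 and 2.80 without RA and 0.21 and 0.17 with it (-2.54 ± 0.35, adjusted p = 0.0209), and Cdkn1c, which encodes p57, read -4.47 and -4.66 without RA and -3.02 and -3.09 with it (1.51 ± 0.32, adjusted p = 0.0465). The inhibitors thus had opposite signs, each with separated groups. With replicate 2 alone Cdkn1a was at -2.56 and Cdkn1c at 1.48. The call of Cdkn1a was lost in 4 of 20 settings and that of Cdkn1c in 13. The smallest difference of Cdkn1c over the settings was 0.30. The stress-inducible genes Gadd45a and Gadd45b fell by 2.67-fold and 3.01-fold (adjusted p = 0.0361 and 0.0462), and Sesn1, a sestrin that restrains growth signalling, rose by 4.1-fold (adjusted p = 0.0347).

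Genes of the integrated stress response fell for 13 of 32 measured members and rose for none, beside 2.08% and 2.6% of all genes. The list's median was -1.34, and -1.20 with RA replicate 2 alone, where 8 members were called. No member was called without untreated clone replicate 1 or 2, and 13 were without either parental RA array, 8 without either parental untreated array and 15 without RA replicate 2. In 26 of 32 both RA arrays lay below both untreated arrays, beside 28.7% of all genes. Of the 31 readable on all 4 clone arrays this held for 25, beside 7138 of 22209 such genes. The parental median was -0.10, with no member called.

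Transcription factors of the response had some of the larger falls. Ddit3, which encodes CHOP, had levels of 5.26 and 5.36 without RA and 2.30 and 2.18 with it, a difference of -3.07 ± 0.31 or 8.39-fold (adjusted p = 0.0116). Atf3 read 1.03 and 1.11 without RA and -1.89 and -1.71 with it (-2.87 ± 0.28, adjusted p = 0.0116). Nupr1, a small chromatin-associated stress protein, read 6.85 and 6.85 without RA and 4.26 and 4.04 with it (-2.70 ± 0.26, adjusted p = 0.0116). In these genes the 4 arrays formed separate pairs, and the calls were kept with replicate 2 alone (adjusted p = 0.0232, 0.0232 and 0.0232). Trib3, a pseudokinase that binds CHOP and ATF4, fell by 4.49-fold (adjusted p = 0.0348). Atf4 itself was at -1.02 ± 0.46 and did not pass (adjusted p = 0.256).

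Effector genes of the response fell in several functions. Chac1, which degrades glutathione, read 6.50 and 6.38 without RA and 3.88 and 4.07 with it (-2.46 ± 0.26, adjusted p = 0.0116), and Cth, which makes cysteine from cystathionine, read 4.29 and 4.77 without RA and 1.40 and 1.66 with it (-3.0 ± 0.31, adjusted p = 0.0116). Ppp1r15a, the phosphatase subunit that reverses eIF2 phosphorylation, fell by 5.88-fold (adjusted p = 0.0191), and Eif4ebp1, an inhibitor of cap-dependent translation, by 3.3-fold (adjusted p = 0.0232). The amino acid transporters Slc7a5, for large neutral amino acids, and Slc6a9, for glycine, fell by 4.2-fold and 3.04-fold (adjusted p = 0.0287 and 0.0325). Slc3a2, the partner chain of Slc7a5, and Slc7a11, the cystine transporter, were at -1.43 ± 0.33 and -1.49 ± 0.35 and did not pass, and the cationic amino acid transporter Slc7a3 was at 1.66 ± 0.43 with the opposite sign (adjusted p = 0.0795). Asns, asparagine synthetase, was at -1.08 ± 0.39 (adjusted p = 0.168). The secreted proteins Stc2 and Gdf15 fell by 5.49-fold and 4.6-fold (adjusted p = 0.0187 and 0.0281). The largest fall on the list was of Cdsn, which encodes an adhesion protein of cornified skin rather than a stress or amino acid gene, with levels of 3.1 and 3.38 without RA and -0.24 and -0.27 with it (-3.49 ± 0.36, adjusted p = 0.0116).

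Genes of serine synthesis and the folate cycle, among them targets of ATF4, fell for 6 of 17 measured members, beside 2.08% of all genes, and rose for none, with a median of -1.05. The count was 1 without either parental untreated array and 0 without either untreated clone array. Phgdh, the first enzyme of serine synthesis, read 6.60 and 6.76 without RA and 4.88 and 4.88 with it (-1.80 ± 0.25, adjusted p = 0.0209). The enzymes of the next steps, Psat1 and Psph, read 6.30 and 6.51 without RA and 4.81 and 4.94 with it and 5.65 and 5.52 without RA and 3.97 and 3.87 with it, respectively, with differences of -1.53 ± 0.29 and -1.66 ± 0.31 (adjusted p = 0.0368 and 0.0342). All 3 enzymes of the pathway thus had both RA arrays below both untreated arrays. Aldh1l2, a mitochondrial folate enzyme, had the largest fall, with levels of 3.22 and 3.79 without RA and 0.60 and 1.02 with it (-2.69 ± 0.33, adjusted p = 0.018). Got1, the cytosolic aspartate aminotransferase, fell by 4.2-fold (adjusted p = 0.022), and Mthfd2, a mitochondrial folate dehydrogenase, by 2.43-fold, with an adjusted p just under 0.05. With RA replicate 2 alone, Aldh1l2 was the member that passed (-2.48, adjusted p = 0.0389), and Phgdh was at -1.80 (adjusted p = 0.0532).

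**Figure D3:**
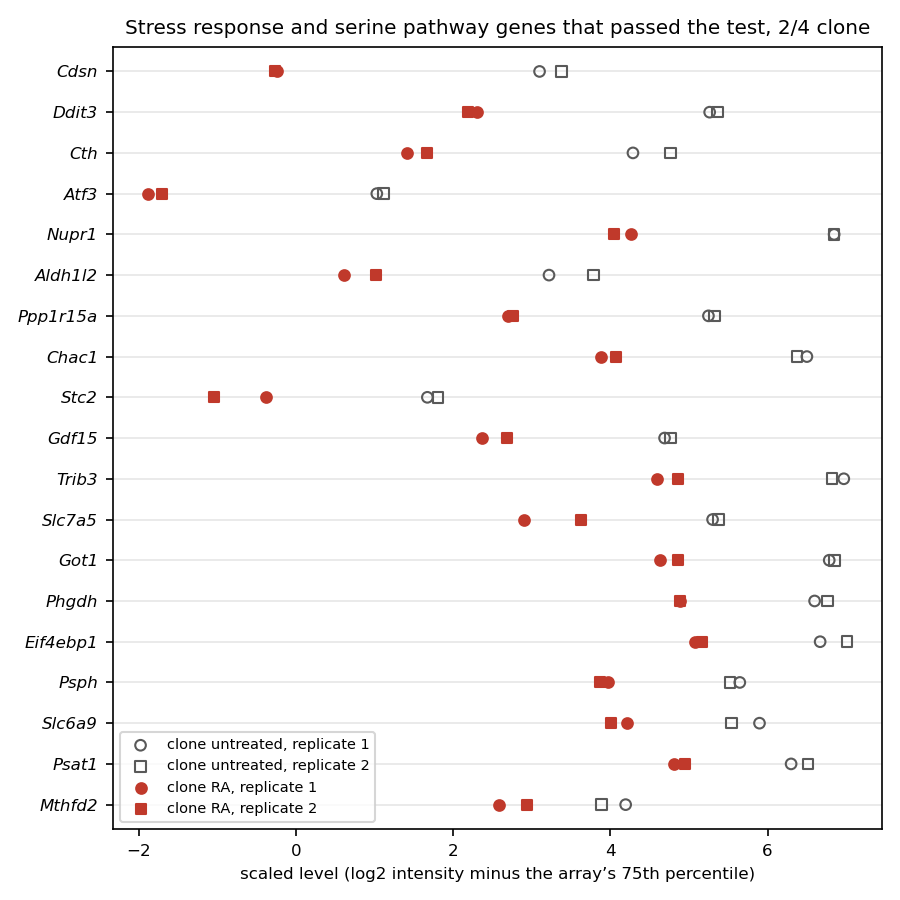
Log2 scaled level of the 19 genes of the integrated stress response and of serine and one-carbon metabolism that passed the test, on each of the 4 clone arrays, open symbols untreated and filled symbols RA, circles replicate 1 and squares replicate 2. For Ddit3 the untreated arrays stand at 5.26 and 5.36 and the RA arrays at 2.30 and 2.18, and for Phgdh at 6.60 and 6.76 and 4.88 and 4.88.

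Related lists of protein supply and metabolism held single called members. Of 20 tRNA synthetase genes, Yars, for tyrosine, fell by 2.38-fold (adjusted p = 0.0499) and none rose, with a median of -0.87 and both RA arrays below both untreated arrays in 17 of 20, beside 28.7% of all genes. Of 26 genes of folding in the endoplasmic reticulum, Herpud1, a degradation adaptor, fell by 3.02-fold and Wfs1, a membrane glycoprotein there, by 2.76-fold (adjusted p = 0.0301 and 0.0373), and the median was -0.26. Of 37 genes of the respiratory chain, Cyc1, cytochrome c1, fell by 2.77-fold (adjusted p = 0.0383), with a median of -0.65 and both RA arrays lower in 32 of 37, beside the same 28.7%. None of 45 ribosomal protein genes, 31 proteasome genes or 32 cholesterol genes was called, with medians of -0.38, -0.48 and 0.20. Ribosomal protein and respiratory chain genes are bright on these arrays, and the brightest 25% of all genes had a median of -0.39. The tRNA synthetase and respiratory chain genes were all readable on all 4 clone arrays. Of such genes, 7138 of 22209 had both RA arrays below both untreated arrays. Among 34 genes of hypoxia and glycolysis, Ndrg1, a stress and differentiation gene, read 0.48 and 0.41 without RA and -2.80 and -4.08 with it (-3.88 ± 0.43, adjusted p = 0.0144). Egln3, an oxygen sensor, fell by 3.68-fold and Ankrd37, a hypoxia target, rose by 3.08-fold (adjusted p = 0.0243 and 0.0458). Hmox1, heme oxygenase, fell from 3.74 and 4.07 to 1.06 and 0.87 (adjusted p = 0.0191), and Gsta4, a glutathione transferase, rose by 2.89-fold (adjusted p = 0.0477), the called members of 34 oxidative and heat stress genes. The lysosomal protease Ctsh rose by 4.2-fold and the autophagy gene Wipi1 fell by 3.06-fold (adjusted p = 0.0283 and 0.0407) among 39 genes of lysosomes and autophagy. Of 20 settings, these single calls were lost in 4 for Ndrg1 and Hmox1, 7 for Egln3 and Herpud1 and 8 for Ctsh. They were lost in 10 for Ankrd37, Gsta4 and Wfs1, 11 for Cyc1 and Wipi1 and 14 for Yars. With RA replicate 2 alone Egln3 was at -1.82, Ankrd37 at 1.43, Gsta4 at 1.32 and Yars at -1.26.

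In the neuronal gene lists, between 1 and 3 members of each passed the test upwards, beside 2.6% of all genes. Of 30 semaphorins, plexins and neuropilins, the guidance receptors of growing axons, 2 rose and none fell, and the median was -0.01. Nrp1, the semaphorin and VEGF co-receptor, had levels of -2.67 and -2.80 without RA and 0.46 and 1.18 with it, a difference of 3.56 ± 0.35 (adjusted p = 0.0116). Plxna4, a signalling partner of neuropilins, read 0.89 and 0.97 without RA and 4.06 and 4.26 with it (3.22 ± 0.29, adjusted p = 0.0116). The RA arrays stood clear of the untreated arrays for both, and both calls were kept with replicate 2 alone (3.92 and 3.32, adjusted p = 0.0167 and 0.0213). Among 28 ephrin, Slit and netrin genes, the receptor gene Epha10 rose from -3.71 and -4.21 to -0.70 and -1.77 (adjusted p = 0.0326), while the repellent Slit1 and the ligand Efna1 fell by 3.71-fold and 3.25-fold (adjusted p = 0.0209 and 0.0428). Of 38 genes of the neuronal cytoskeleton, Stmn4, a microtubule regulator, rose by 3.55-fold (adjusted p = 0.042). The neuronal tubulin Tubb3 and the growth cone gene Gap43 were at -0.28 ± 0.42 and -0.23 ± 0.31 and did not pass.

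For the synapse, 3 of 44 genes of synaptic vesicles and adhesion rose, beside 2.6% of all genes, and none fell. Of the 39 readable on all clone arrays, 2 rose, beside 2.37% of such genes, and both RA arrays lay above both untreated arrays in 22, beside 23%. The median of the 39 was 0.43, and 0.30 with RA replicate 2 alone. Unc13b, which primes vesicles, read -3.85 and -4.19 without RA and -0.89 and -0.78 with it (3.18 ± 0.49, adjusted p = 0.0231). Rab3b, a vesicle GTPase, read -3.44 and -3.48 without RA and -1.21 and -1.48 with it (2.11 ± 0.27, adjusted p = 0.0188). Nlgn3, a postsynaptic adhesion protein, was not well above background without RA and was at least 4.91-fold higher with it (adjusted p = 0.0409). The vesicle protein gene Syp was at -0.03 ± 0.33, with overlapping arrays. Of 21 genes of dense core granules, Chga, the granule protein chromogranin A, read 3.54 and 3.21 without RA and 5.18 and 4.99 with it (1.71 ± 0.29, adjusted p = 0.0291), and the neuropeptide gene Vip read -3.42 and -3.02 without RA and -0.50 and -0.16 with it (2.89 ± 0.58, adjusted p = 0.0421). With replicate 2 alone, Unc13b and Rab3b kept their calls (adjusted p = 0.0472 and 0.0472), while Chga and Vip did not (adjusted p = 0.0858 and 0.0767).

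Among channels and receptors, Kcnc1, a fast potassium channel, read -1.49 and -3.57 without RA and 0.62 and 0.73 with it (3.20 ± 0.66, adjusted p = 0.0448). Scn11a, a sodium channel of sensory neurons, read 2.36 and 2.29 without RA and 3.70 and 3.80 with it (1.42 ± 0.30, adjusted p = 0.0477). These were the called members of 39 voltage-gated channel genes, and neither passed with replicate 2 alone. Of 24 transmitter receptor genes, the GABA-B receptor gene Gabbr1 rose by 2.86-fold (adjusted p = 0.0336), and the serotonin receptor gene Htr3b, not well above background without RA, was at least 13.1-fold higher (adjusted p = 0.0247). Slc18a1, the vesicular monoamine transporter of endocrine cells, rose by 3.57-fold (adjusted p = 0.0448), as 1 of 13 catecholamine genes. Phox2a, a transcription factor of autonomic neurons, rose by 2.89-fold (adjusted p = 0.0411), as 1 of 29 genes of the sympathoadrenal lineage. Neither Slc18a1 nor Phox2a passed with replicate 2 alone (adjusted p = 0.0857 and 0.0614).

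Cholinergic genes, which make, store and break down acetylcholine, gave calls of opposite sign. Ache, the enzyme that breaks acetylcholine down, read -2.03 and -2.29 without RA and 0.17 and 0.43 with it (2.46 ± 0.35, adjusted p = 0.0215), and the rise was kept with replicate 2 alone (adjusted p = 0.0405). Slc18a3, the vesicular acetylcholine transporter, whose gene lies within the Chat locus, read -1.74 and -1.32 without RA and -2.81 and -2.94 with it (-1.35 ± 0.28, adjusted p = 0.0445). For both genes the groups were separated. With replicate 2 alone Slc18a3 was at -1.41. Its call was lost in 13 of 20 settings, and that of Ache in 6. Chat read -3.73 and -2.71 without RA and 1.10 and -2.58 with it, so the RA arrays lay far apart, with replicate 2 close to an untreated array, and the difference did not pass (2.48 ± 1.27, adjusted p = 0.311; 0.64, adjusted p = 0.779 with replicate 2 alone). Of the 21 cholinergic genes measured, the other 19 did not pass, and the nicotinic subunit genes Chrna3 and Chrnb2 were at 1.25 ± 0.31 and 1.17 ± 0.29.

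In the nuclear envelope, 2 of 27 genes fell, beside 2.08% of all genes, and none rose. Syne3, which encodes the nesprin that ties the nucleus to intermediate filaments, read -1.15 and -0.95 without RA and -3.43 and -3.44 with it (-2.38 ± 0.28, adjusted p = 0.0165), and kept its call with replicate 2 alone (adjusted p = 0.0354). Lmna, which encodes lamins A and C, read 4.86 and 5.17 without RA and 3.53 and 3.50 with it (-1.50 ± 0.26, adjusted p = 0.0306), and did not keep it (adjusted p = 0.0857). The B-type lamin genes Lmnb1 and Lmnb2 were at 0.15 ± 0.48 and -0.92 ± 0.34 and did not pass, and the sign of Lmnb1 turned without RA replicate 2 (-0.20).

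Outside the cell, 2 of 35 matrix genes rose and 4 fell, beside 2.6% and 2.08% of all genes. The falls numbered 2 with RA replicate 2 alone or without either parental RA array, 1 without either parental untreated array and 0 without either untreated clone array. Tgfbi, an adhesive matrix protein, read 5.03 and 5.16 without RA and 2.27 and 2.17 with it (-2.88 ± 0.37, adjusted p = 0.0187), and in the parental line it was at -5.08 (adjusted p = 0.00782). Col18a1, a basement membrane collagen, fell by 4.6-fold (adjusted p = 0.0281), as did the laminin chain gene Lama5 by 2.4-fold and the matrix gene Fbln2 by 3.54-fold. Col1a2, a chain of fibrillar collagen, rose from -3.28 and -3.77 to -0.75 and -0.86 (adjusted p = 0.0404), while Col1a1, the other chain, was at -1.33 ± 0.32 with the opposite sign (adjusted p = 0.067). Col8a1 was not well above background without RA and was at least 6.13-fold higher with it (adjusted p = 0.0353), but it entered the test through the clone RA arrays alone. Of the 29 matrix genes readable on all clone arrays, 1 rose and 4 fell, beside 2.37% and 2.31% of such genes. Among 35 genes of integrins and actomyosin, Itga1, a collagen-binding integrin, rose from -2.42 and -2.0 to 0.06 and 0.87 (adjusted p = 0.0216), and Itga7 and Itgb3 fell by 3.16-fold and 4.03-fold (adjusted p = 0.0282 and 0.0361). Mmp15, a membrane-bound matrix protease, read -0.61 and -1.09 without RA and 2.22 and 3.23 with it (3.58 ± 0.51, adjusted p = 0.0216), and in the parental line its difference was 4.36 (adjusted p = 0.016). Adamts9 was at least 4.47-fold higher by mean levels, and the urokinase receptor gene Plaur fell by 3.72-fold (adjusted p = 0.0362 and 0.0319), both among 28 proteases and inhibitors. Of 29 genes of the mesenchymal state, Wwtr1, which encodes the Hippo pathway co-activator TAZ, read 1.34 and 0.80 without RA and -1.30 and -1.77 with it (-2.61 ± 0.32, adjusted p = 0.0179), the receptor gene Pdgfrb fell by 6.41-fold and the transcription factor gene Sox9 rose by 4.88-fold (adjusted p = 0.0231 and 0.0342).

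In signalling lists of 24 to 36 genes, between 1 and 5 members passed, beside 4.69% of all genes. Notch4, a Notch receptor, read -4.09 and -3.71 without RA and -0.77 and -0.37 with it (3.33 ± 0.37, adjusted p = 0.0141), and the ligand gene Dll4 read -5.11 and -5.03 without RA and -1.96 and -0.91 with it (3.63 ± 0.48, adjusted p = 0.0194), both kept with replicate 2 alone, while Mfng, a glycosyltransferase that modifies Notch, fell by 2.71-fold (adjusted p = 0.0392). Of 36 Wnt pathway genes, the ligands Wnt6, Wnt11, Wnt5a and Wnt10a fell by 3.97-fold, 3.09-fold, 3.21-fold and 2.91-fold (adjusted p = 0.0216, 0.0318, 0.0323 and 0.038), and the receptor gene Fzd7 rose by 4.04-fold (adjusted p = 0.0468), so that 4 of the 36 fell, beside 2.08% of all genes. In each of these genes the groups did not overlap. With RA replicate 2 alone Wnt6 was the ligand that passed (adjusted p = 0.0421, against 0.0733, 0.0935 and 0.1 for the others), and none passed without either parental untreated array or either untreated clone array. All 4 called members of 25 feedback genes of MAP kinase signalling fell: the phosphatase genes Dusp2 and Dusp14 by 3.72-fold and 3.92-fold, the inhibitor Spry4 by 2.49-fold and the transcription factor Etv4 by 3.47-fold (adjusted p = 0.0289, 0.0468, 0.0353 and 0.0337), beside 2.08% of all genes. Without either parental RA array 2 of them were called, and with RA replicate 2 alone or without any 1 of the 4 untreated arrays none was. In the TGF-beta and BMP list, Inha, an inhibin subunit, rose by 4.25-fold and Fst, an activin antagonist, fell by 4.8-fold (adjusted p = 0.0209 and 0.0257), beside Gdf15, given above. Klf4, among 31 immediate early genes, fell by 3.53-fold (adjusted p = 0.0224), and Igf2r, among 24 growth factor receptor genes, rose by 3.4-fold (adjusted p = 0.0282). Of 34 interferon and antigen presentation genes, Oasl1 and Oasl2 rose by 7.88-fold and 4.77-fold and Oas1a, of the same family, fell by 6.56-fold (adjusted p = 0.0165, 0.0286 and 0.0224), and all 3 kept their calls with replicate 2 alone. Members of this family have similar sequences, and cross-hybridisation of their probes was not tested. Bik, a death-promoting BCL2 family gene, was not well above background on either untreated array. By mean levels it was at least 8.79-fold higher with RA (adjusted p = 0.0116).

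**Figure D4:**
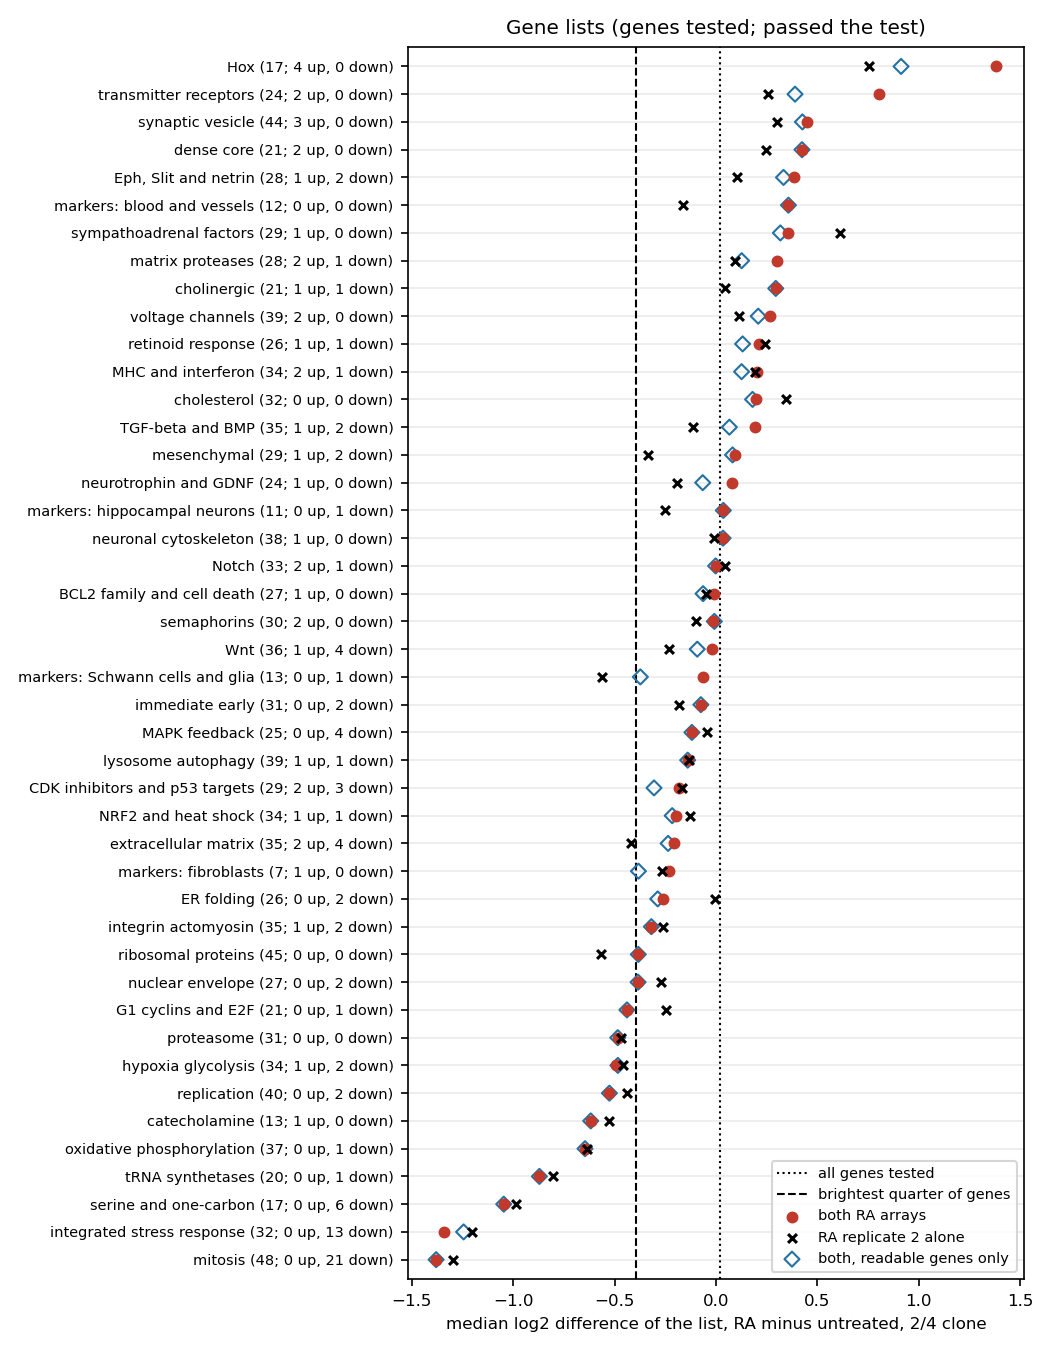
Median log2 difference, RA minus untreated, of the genes of each list in the clone, as circles with both RA arrays and as crosses with RA replicate 2 alone and as open diamonds for readable genes, those well above background on all 4 clone arrays, with the number of genes tested and passed beside each name. The mitotic and stress response lists stand lowest in the clone, at -1.38 and -1.34, the Hox list highest at 1.38 (0.91 for its 11 readable genes), and the dotted line marks the median of all genes, 0.02.

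Apart from the lists, genes were ranked by change among those readable on every clone array whose change held in replicate 2, and those at the top had varied functions. After Cyp26b1, the largest rises were of Fam183b, a gene linked to motile cilia, with levels of -5.27 and -5.39 without RA and -0.64 and 0.12 with it (5.07 ± 0.50), Gm14207, a gene known by its number, with -3.69 and -2.97 without RA and 0.36 and 1.30 with it, and Dio2, the deiodinase that activates thyroid hormone, with -2.35 and -2.04 without RA and 1.79 and 2.04 with it (4.11 ± 0.27). Each stood clear of the untreated arrays (adjusted p = 0.0116, 0.0116 and 0.0116). The sodium-activated potassium channel gene Kcnt1 rose from -3.74 and -3.39 to 0.13 and -0.04, and Dusp26, a phosphatase of neuronal and endocrine cells, from -1.73 and -1.35 to 1.73 and 1.99. Greb1, a hormone-responsive gene, and Foxc1, a forkhead transcription factor, rose by 10.5-fold and 10.2-fold, and the serine protease gene Tmprss9 and the olfactory receptor gene Olfr424 by 12.5-fold and 10.1-fold. Adjusted p for the rises given here only as a fold or as levels lay between 0.0116 and 0.0193.

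By the same rule the largest fall was of Pla2g2e, a secreted phospholipase, with levels of 1.53 and 2.10 without RA and -2.79 and -3.73 with it (-5.07 ± 0.38, adjusted p = 0.0116). Ramp3, a partner of the calcitonin receptor family, read 0.07 and 0.49 without RA and -4.0 and -5.20 with it (-4.88 ± 0.50, adjusted p = 0.0116), and Cox6a2, the muscle form of a cytochrome oxidase subunit, read 3.64 and 4.12 without RA and -0.28 and -0.46 with it (-4.25 ± 0.29, adjusted p = 0.0116). On all 4 arrays of each gene the groups were far apart. Upp1, uridine phosphorylase, fell from 0.01 and 0.45 to -3.63 and -3.65, and Fa2h, which makes hydroxylated myelin lipids, from 0.79 and 1.14 to -2.07 and -2.78. The septin gene Septin4, the carbonic anhydrase gene Car6 and the histone gene H4c17 fell by 15.5-fold, 10.5-fold and 10.6-fold. Mamdc2, Cyb5r2, Iqcf5, Nxf7 and 1810010H24Rik fell by 12.8-fold, 10.6-fold, 16.6-fold, 15.7-fold and 15.8-fold. Adjusted p for these ran from 0.0116 to 0.0247. H4c17 belongs to a family of near-identical histone genes, so its probe may read others of them, which was not tested.

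Some genes were readable in 1 group only, and 68 called genes with a symbol had a lower bound for a rise and 10 for a fall. By mean levels, Ttll2, a tubulin-modifying enzyme gene, was at least 36.2-fold higher with RA, Elf5, an epithelial transcription factor gene, at least 29.9-fold, Arg1, arginase, at least 25-fold, Pkd2l1, a cation channel gene, at least 19.5-fold and Msln, mesothelin, at least 14.9-fold (adjusted p = 0.0205, 0.0141, 0.0231, 0.0225 and 0.0191). These genes entered the test through RA arrays, and Arg1, Pkd2l1 and Msln through those of the clone alone. Their adjusted p therefore rests partly on the filter. A bound is the mean level of the brighter group over the lowest level well above background on each array of the other, or over the gene's own level where higher. For Ttll2, Gulo, Elovl3 and Cryzl2, and for Bik and Adamts9 given above, the gene's own level set the bound, which thus equals the measured fold. Bounds make no allowance for the spread between arrays and hold for the main processing alone. Over the other settings the smallest log2 rise was 2.28 for Ttll2, 1.54 for Elf5, 1.30 for Arg1, 1.11 for Pkd2l1 and 0.86 for Msln. The smallest fall was -1.05 for Gulo, -1.10 for Elovl3, -0.68 for Fhl2, -0.70 for Ngef and -0.67 for Cryzl2. For genes above it was a rise of 0.17 for Hoxb2, 0.37 for Nlgn3, 0.95 for Htr3b, 0.56 for Col8a1, 0.35 for Adamts9 and 0.91 for Bik. All lay below the bounds in size. The 95% interval of the log2 difference was 3.53 to 6.83 for Ttll2 and 3.14 to 6.68 for Arg1. In the other direction, Gulo, an enzyme of vitamin C synthesis, was at least 7.42-fold lower with RA, and Elovl3, a fatty acid elongase gene, at least 6.54-fold. The bounds were 5.52-fold for Fhl2, a LIM domain cofactor gene, 5.47-fold for Ngef, an exchange factor gene of neurons, and 5.14-fold for Cryzl2. Fhl2 was well above background on the untreated clone arrays alone. It entered the test through them, so its call rests partly on the filter too. More bounds for rises than for falls went with the raised dim signals of RA replicate 1, whose dimmest 25% of genes differed from the untreated arrays by a median of 1.18, against -0.12 for replicate 2, and the part of this in the bounds was not tested. Of these 10 genes, the exception with replicate 2 alone was Cryzl2 (-2.26, adjusted p = 0.0642), and the other 9 kept their calls.

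Whether a response in the clone differed from that in the parental line was tested as the difference of both RA differences, and 49 genes passed (0.187% of all). In 29 (0.111%) the clone's difference was the higher one and in 20 (0.0764%) the lower. The limma count was 0 without any 1 of the parental or untreated clone arrays, with 2429 to 3696 genes at an unadjusted p under 0.05, and it was 43 without RA replicate 1 and 1010 without RA replicate 2. In the clone, Tff1, a secreted trefoil peptide gene, read -3.04 and -2.72 without RA and -4.82 and -5.52 with it. Parental levels were -6.61 and -7.62 without RA and -1.69 and -1.91 with it, and not well above background without RA. Clone and parental arrays thus moved in opposite directions (adjusted p = 0.0158 for the difference), with no exact size, since the parental level without RA is only a bound. Ptgds, which makes prostaglandin D2 and carries retinoids, read -1.53 and -1.66 without RA and 0.93 and 0.98 with it in the clone. The parental arrays went the other way, at -0.28 and -0.29 without RA and -2.58 and -2.49 with it (4.80 ± 0.35, adjusted p = 0.0158). Dio2 rose in the clone, as given above, and read -4.83 and -4.88 without RA and -5.64 and -5.84 with it in the parental line (5.0 ± 0.38, adjusted p = 0.0158), where it was well above background on 1 array of each group. Nrip2, a nuclear receptor-interacting protein gene, read -1.0 and -0.64 without RA and -2.68 and -2.59 with it in the clone. Here too the parental arrays had the opposite order, with -4.33 and -4.26 without RA and -1.28 and -1.06 with it (-4.93 ± 0.38, adjusted p = 0.0158). For Sorcs2, a sorting receptor gene of neurons, the parental levels were -5.11 and -5.11 without RA and 1.39 and 2.02 with it, and those in the clone were -3.06 and -2.87 without RA and -2.16 and -1.74 with it (-5.80 ± 0.45, adjusted p = 0.0158), so in both lines the RA arrays were the higher ones and in the parental line by more. The parental arrays of Nrip2 and Sorcs2 without RA were well above background on 1 of 2. Of the stress genes, Ddit3 and Atf3 passed the same test (-3.92 ± 0.44 and -3.29 ± 0.39, adjusted p = 0.0381 and 0.0414), with parental levels of 4.17 and 4.85 without RA and 5.44 and 5.28 with it for Ddit3. No mitotic gene passed it. Slide row goes with this difference of RA responses, since the RA arrays lay in row 2 for the clone and in row 1 for the parental line. The untreated arrays lay in the other row each time. A row effect by itself would give opposite signs in the lines. Slide row and a difference between the lines' responses therefore cannot be told apart.

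**Figure D5:**
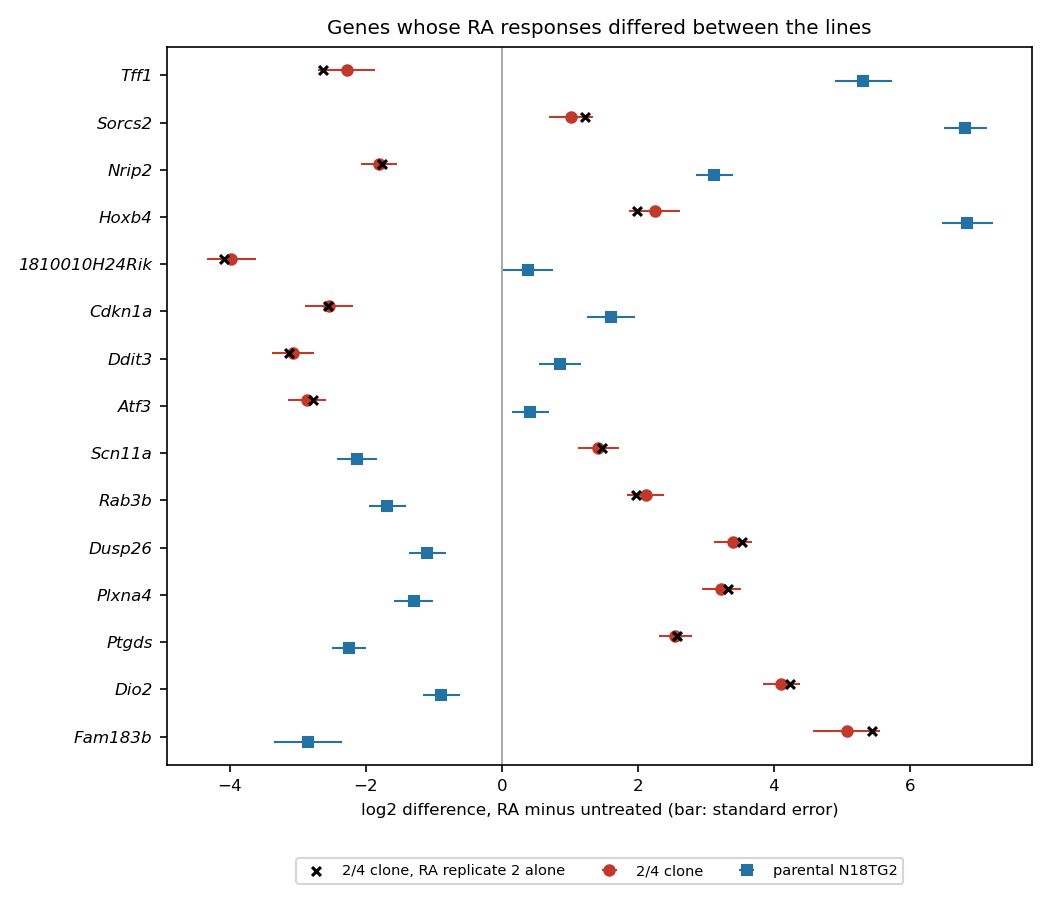
RA minus untreated on the log2 scale, by line, for 15 named genes whose RA difference differed between the lines, with circles for the clone, crosses for the clone with RA replicate 2 alone, squares for the parental line and bars of 1 standard error. In the clone Tff1 stands at -2.28 and Ptgds at 2.55, and the parental squares stand at 5.32, from untreated levels not well above background, and -2.25.

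The labelled cell type was checked with marker lists, since a protocol in the labels mentions hippocampus as the source of RNA. Prox1, Neurod1, Neurod2 and Neurod6, defining genes of hippocampal neurons, were not well above background on any clone array, nor were Olig1, Olig2 and Foxd3 of glia, Cdh5, Tek, Cx3cr1 and C1qa of vessels and microglia, or Lum, Thy1 and Fap of fibroblasts. Other markers were detected: 12 of 20 glial, 7 of 19 hippocampal, 11 of 18 blood and vessel and 6 of 10 fibroblast markers were well above background on both untreated clone arrays. Summed linear levels, in units of each array's 75th percentile, were 13.3 and 15.4 without RA against 4.78 and 4.39 with it for 20 Schwann cell and glial markers, of which Pmp22, a myelin protein also expressed outside glia, fell (log2 -2.29 ± 0.26, adjusted p = 0.0158). They were 15.9 and 16.9 against 10.3 and 9.17 for 19 hippocampal markers. For 18 blood and vessel markers they were 27.0 and 24.3 against 42.6 and 21.0, and for 10 fibroblast markers 3.22 and 3.77 against 3.07 and 2.88. So the glial and hippocampal sums were lower on both RA arrays, while the blood and vessel sum was raised on RA replicate 1 alone. Most of the untreated hippocampal sum came from Wfs1, whose log2 levels were 3.66 and 3.71 without RA and 2.33 and 2.11 with it. Of 11 hippocampal markers tested, 6 had a higher and 5 a lower mean with RA, with a median log2 difference of 0.04. Pmp22 also passed as lower in the parental line (-2.47). The part of other cells in the results was not tested.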

How the data were processed

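RNA of 8 samples was read on one-colour Agilent mouse arrays, 2 per group. Per the file headers, the authors' scanner software, Feature Extraction 10.7.3.1, subtracted background from each intensity without scaling between arrays. The deposited series table of log2 values equals these on a log2 scale minus 1 constant per array.

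From the intensities, log2 minus the array's 75th percentile over non-control spots was computed. Outlier spots were dropped. Of 55681 probes, 36632 were kept because at least 2 arrays read them well above background, and the brightest represented each gene, named through RefSeq accessions (15143 of 26181 with a symbol). A linear model on group means, using limma 3.58.1 under R 4.3.3, took in all 8 arrays (4 residual and 3 prior degrees of freedom), with Benjamini-Hochberg adjustment at 0.05. In simulated data for RA in the clone (26181 genes), it recovered 0%, 19.4% and 51.5% of changes of log2 1, 2 and 3. Those data held 67, 67 and 66 such changes, far fewer than the 1227 genes called here. The adjustment is stricter when fewer genes change, so these shares may not carry over to the data.

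The members, the 44 lists and the tests were chosen with earlier results of these data known. Named genes were the 15 largest rises and falls above background and held in RA replicate 2, the 5 largest bounds each way, up to 5 called members per list, Lmna, Chat, Cyp26b1, Rarb, the genes whose promoters are printed and the 5 genes with the smallest adjusted p between the lines. Other genes were chosen after their values were seen, and some genes are not reported here. Promoter sequences are from RefSeq. Alternatives were another background correction, 2 other scalings, the series table, 2 filters, a floor, the probes' mean, another variance, clone arrays alone, a block for the side of the slide, a threshold of 2-fold, and omission of each array in turn.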

Additional observations from a re-analysis of the deposited data

Results flagged for a closer look

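The RA difference in the clone minus that in the parental line passed the limma test, at an adjusted p under 0.05 over all genes, for 15 of the named genes, with n = 2 arrays per group. Slide row cannot be told apart from this difference. It was higher in the clone for 7 of them. These were Fam183b (7.92, adjusted p = 0.0179), Dio2 (5.0, 0.0158), Ptgds (4.80, 0.0158), Plxna4 (4.52, 0.0179), Dusp26 (4.50, 0.0173), Rab3b (3.80, 0.032) and Scn11a (3.55, 0.0414). Fam183b was not well above background on the parental RA arrays, so its value is no bound.

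The other 8 were lower in the clone. Tff1 (-7.60, adjusted p = 0.0158), Sorcs2 (-5.80, 0.0158), Nrip2 (-4.93, 0.0158) and Hoxb4 (-4.59, 0.0381) had higher RA than untreated arrays in the parental line, where Tff1 and Hoxb4 were not well above background without RA, so their values are no exact sizes. For Hoxb4 the levels with RA were 2.14 and 1.62 in the clone and 1.08 and 0.64 in the parental line, so the lines differed mainly without RA. The stress genes Ddit3 (-3.92, 0.0381) and Atf3 (-3.29, 0.0414), the CDK inhibitor gene Cdkn1a (-4.15, 0.0414) and 1810010H24Rik (-4.36, 0.0414) fell in the clone, with parental differences of 0.85, 0.42, 1.61 and 0.38. With RA replicate 2 alone, adjusted p rose above 0.05 for Atf3, Ddit3, Cdkn1a, 1810010H24Rik and Scn11a (0.0574, 0.0502, 0.0527, 0.0502 and 0.0527). Every one of these calls was lost without any 1 of the parental or untreated clone arrays.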

How the results depend on the processing

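The count for RA in the clone (1227) was 2464 with normexp background correction and quantile normalization, 1888 with a floor for dim signals, 2175 with a trended and robust variance, and 0 with only the 4 clone arrays or no filter on dim probes. The count for the difference between the lines (49) was 1039 with normexp, 89 with quantile normalization, 230 with only probes above background on all clone arrays, 158 with the floor, 451 with the trended variance, 21 with a block for the slide side and 0 with no filter. Called list members (122) were 228 with normexp and 218 with the trended variance, and they and the called named genes (134) were both 0 with no filter or only the clone arrays. Leaving out 1 array gave 0 to 3047 for RA in the clone, 0 to 1010 for the lines, 0 to 159 list members and 0 to 116 named genes. Quantile normalization alone gave 559 higher and 623 lower, 47.3% higher against 55.6%, and the trended variance 43.4%. Of 20 settings, 4 gave no call in the clone, 53 named genes lost their call only there, 81 in at least 1 other, and 0 reversed. Reversed values were those of Rarb with the floor (0) and Lmnb1, between -0.20 without clone RA replicate 2 and 0.49 without replicate 1, neither of them called. Over 21 fits the median of the mitotic list lay between -1.56 and -1.13 and that of the stress response between -1.57 and -1.01. The serine list lay between -1.20 and -0.71 and the Hox list between 0.40 and 2.01, while all genes lay between -0.17 and 0.27. The cause of these shifts was not tested. No paired analysis was possible by replicate number because the labels carry none. The block for the slide side, which holds 1 array of each group per side, gave 1150 calls for RA in the clone. With 2 arrays a group, most changes of log2 2 were missed in simulated data that held fewer changes than were called here. Dim genes have only a bound, which depended on the processing.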

Other observations

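Further genes whose RA response differed between the lines were chosen after their values were seen. For these too, slide row and the difference between the responses cannot be told apart. Trim63, a muscle ubiquitin ligase gene, was well above background on the 2 clone RA arrays and on none of the other 6, and was at least 9.62-fold higher with RA in the clone (adjusted p = 0.0116). It entered the test through those arrays, so no size is given for its difference between the lines. Pirt, a regulator of sensory neuron channels, read -2.61 and -2.29 without RA and 0.47 and 0.64 with it in the clone, against parental levels of -4.59 and -4.49 without RA and -6.32 and -5.85 with it (4.55 ± 0.41, adjusted p = 0.0187), where 1 array of each group was well above background. Ptprr, a phosphatase of MAP kinases, read -1.07 and -0.48 without RA and 1.89 and 2.06 with it in the clone, against parental levels of -0.90 and -1.49 without RA and -2.92 and -3.58 with it. Plce1, a phospholipase C gene, read -5.37 and -4.70 without RA and -1.76 and -2.01 with it in the clone, against parental levels of -3.03 and -3.24 without RA and -4.23 and -4.19 with it. In both genes the clone arrays were higher with RA and the parental arrays lower.

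In the other direction, Eppk1, an epithelial cytolinker gene, read -2.35 and -3.07 without RA and -5.65 and -5.97 with it in the clone, against parental levels of -0.29 and -0.77 without RA and 2.41 and 2.24 with it (-5.96 ± 0.49, adjusted p = 0.0167). Cxcl10, an interferon-inducible chemokine gene, read -1.96 and -2.02 without RA and -4.08 and -3.99 with it in the clone, against parental levels of -1.0 and -0.77 without RA and 0.13 and 0.32 with it (-3.15 ± 0.36, adjusted p = 0.0381). The lines thus moved in opposite directions in both genes, and with RA replicate 2 alone the call of Cxcl10 was lost (adjusted p = 0.0554). For Pcp4 and Ctnna2, by contrast, the clone's difference was the higher one. Pcp4 read 6.66 and 6.88 without RA and 6.21 and 6.33 with it in the clone, and did not pass there (-0.50 ± 0.28, adjusted p = 0.346). Its parental levels were 1.21 and 1.64 without RA and -3.28 and -3.33 with it. The difference between the lines (4.22 ± 0.39, adjusted p = 0.0201) thus went with the fall in the parental line. Ctnna2 was not well above background on the parental RA arrays, so no size is given, and its call (adjusted p = 0.0405) was lost with RA replicate 2 alone (0.0525).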
